A study of Mus musculus with 19 samples.

Results

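The megakaryocyte and platelet genes examined here are 33 listed genes, taken by symbol from a table of normalized read counts that holds 34432 genes of mouse bone marrow. Each of the 33 symbols matched 1 gene, and all 33 exceeded the minimum of 10 normalized counts on average, as did 13976 genes in all. Bulk polyA RNA was sequenced from marrow flushed out of the leg bones of untreated C57/BL6 mice aged 8 weeks. The WT group (3 libraries) was labelled wild type. The VAV group (4 libraries) carried only the Vav-iCre transgene, in which the Vav promoter drives Cre recombinase in blood-forming cells. The CDK8KO group (4 libraries) combined that Cre with floxed alleles of Cdk8, the CDK19KO group (4 libraries) had a null allele of the paralogous kinase gene Cdk19, and the DKO group (4 libraries) carried all 3 changes. Cdk8 and Cdk19 encode alternative kinases of the Mediator complex, which links transcription factors to RNA polymerase. VAV is therefore the control for CDK8KO and DKO, and WT is the control for CDK19KO. Labels do not say whether libraries of a group came from separate mice, so the p-values below measure the spread between libraries, which may be technical.

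Megakaryocytes are the large marrow cells that shed platelets into the blood. They arise from progenitors shared with the red cell lineage, under thrombopoietin and transcription factors of the GATA, ETS and RUNX families and NF-E2, and they load alpha granules with chemokines, von Willebrand factor and clotting factors before platelets are released. On the platelet surface, the glycoprotein Ib-IX-V complex binds von Willebrand factor, GPVI binds collagen, CLEC-2 binds podoplanin and the integrin αIIbβ3 binds fibrinogen. In whole marrow these cells are rare and rich in RNA, so a lower level of their genes can come from fewer cells or from less RNA per cell, and bulk counts cannot tell these apart. Of the 33 genes, 11 are made by few other blood cells (Pf4, Ppbp, Gp1ba, Gp1bb, Gp5, Gp9, Itga2b, Gp6, Clec1b, Treml1 and Tubb1) and are called the restricted markers below. The other 22 include genes that other marrow cells also transcribe, such as Fli1, Nfe2, Plek, Bin2, Cd9 and F5.

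The libraries held 14881701 to 33010241 reads assigned to genes. Cdk19 stood at 1025 to 1202 normalized counts in the 8 libraries labelled Cdk19 null and at 2710 to 4304 in the other 11. Cdk8 did not separate the libraries labelled CDK8KO (692 to 1298 normalized counts) from VAV (789 to 1315). It stood at 742 to 881 in DKO, 1206 to 1275 in WT and 972 to 1332 in CDK19KO, and the DKO values overlapped those of VAV. The labels do not say which exons are floxed, so these gene-level counts check Cdk19 but not the Cdk8 deletion. Of all reads, the restricted markers took 0.0536 to 0.0714% (WT), 0.0161 to 0.136% (VAV) and 0.0121 to 0.0281% (DKO). Their share was 0.0186 to 0.0823% in the CDK8KO libraries and 0.0276 to 0.143% in the CDK19KO libraries. Markers of red cell precursors (14 genes) took 3.2% of the reads in VAV replicate 3 and 3.52% in CDK8KO replicate 1, against 0.11 to 1.45% in the other 17 libraries. Markers of basophils and eosinophils rose in DKO against VAV for 3 of 8 and 5 of 7 genes in the test described below, against 0.83% of all genes that rose.

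The restricted markers varied together from library to library within a genotype. All 11 were at their highest in WT replicate 2, VAV replicate 3, CDK8KO replicate 1 and CDK19KO replicate 2, and all 11 were at their lowest in VAV replicate 2 and CDK19KO replicate 1. Among all genes tested, 33.5%, 30.0%, 29.6% and 27.2% were highest in those first 4 libraries, and 22.3% and 26.1% were lowest in the last 2. Relative to WT replicate 1, the median WT library, the mean log2 level of the restricted markers was 1.34 higher in VAV replicate 3 and differed by -1.76 in VAV replicate 2. The DKO libraries had no such high replicate, and their mean levels differed from that WT library by -0.84 to -1.72. CDK8KO replicates 2, 3 and 4 (-1.27, -1.07 and -1.23) and CDK19KO replicate 1 (-0.95) lay in the same range. The standard deviation left within genotypes, on the log2 scale, was 0.84 to 1.003 for the restricted markers, against a median of 0.28 for all genes tested. Among the other members, F5 (0.15), Fli1 (0.16), Nfe2 (0.18), Cd9 (0.19), Plek (0.24), Bin2 (0.25) and P2ry1 (0.26) varied least.

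**Figure D1:**
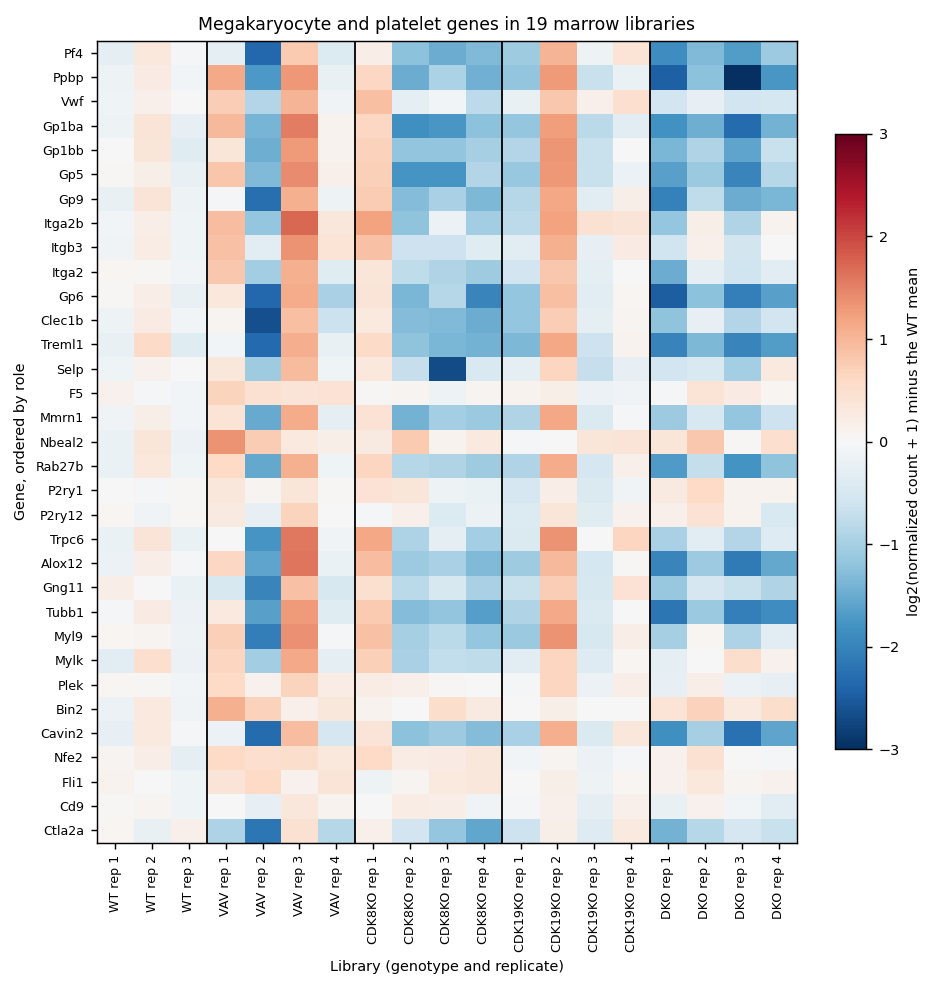
Colour gives log2(normalized count + 1) minus the WT mean for each of the 33 genes (rows, by role) in each of the 19 libraries (columns, by genotype and replicate). VAV replicate 2, CDK8KO replicates 2, 3 and 4, CDK19KO replicate 1 and the DKO libraries are low across most rows. VAV replicate 3, CDK8KO replicate 1 and CDK19KO replicate 2 are high, and rows such as F5, Nfe2, Fli1 and Cd9 change little.

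**Figure D2:**
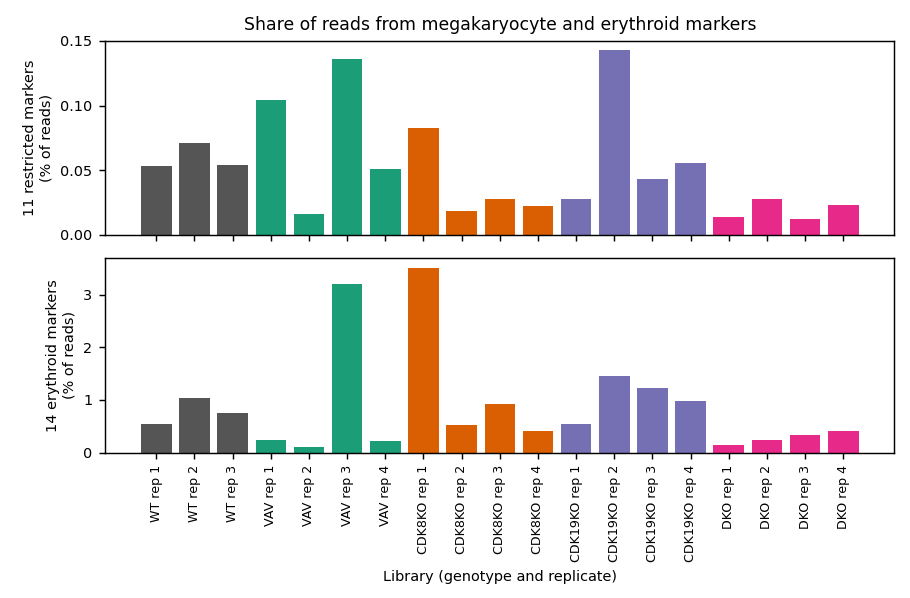
Bars give the percent of reads taken by the 11 restricted markers (upper panel) and by 14 erythroid markers (lower panel) in each library. The upper bars reach 0.136% in VAV replicate 3 and 0.143% in CDK19KO replicate 2. They stay at or below 0.0281% in DKO, and also in VAV replicate 2, CDK8KO replicates 2, 3 and 4 and CDK19KO replicate 1. The lower bars exceed 3% in VAV replicate 3 and CDK8KO replicate 1.

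Differences between genotypes were tested with limma on log2(normalized count + 1), with all 5 groups in the fit and Benjamini-Hochberg adjustment over the 13976 genes. Fold changes are on this log2 scale, each with its standard error (SE), and the threshold was an adjusted p of 0.05. The granule chemokine genes come first. Pf4 (ENSMUSG00000029373, chr5:90772435-90773383, plus strand) encodes platelet factor 4, and its neighbour Ppbp (ENSMUSG00000029372, chr5:90768518-90770063, plus strand) encodes the precursor of platelet basic protein and its chemokine fragments. The coordinates are those of mm10. With 6784 normalized counts per kilobase of exon in WT, Ppbp was the most abundant of the 33 genes, and Pf4 was next with 1654. In DKO, Ppbp stood at 1732 and Pf4 at 595 on this per-length scale, where the transcription factor Fli1 led with 1741.

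Ppbp had 6608, 8593 and 6841 normalized counts in WT and 15944, 2224, 17840.5 and 6249.9 in VAV. Its counts were 11174, 2603, 3766 and 2695 in CDK8KO, 3205, 17683, 4610.2 and 6316 in CDK19KO and 1336, 3096, 889.5 and 2179 in DKO. Every DKO library lay below every CDK19KO library, as for 7.74% of all genes, while VAV replicate 2 fell within the DKO range. DKO was not tested against WT, which lacks the Cre, and no share over all genes was counted for that pair. Values of WT and DKO are therefore only listed, here and below. Its DKO against VAV difference was the most extreme of the members, a fold change of -2.24 ± 0.62 on the log2 scale (SE, limma adjusted p = 0.0904), and it did not pass. For DKO against CDK19KO the log2 fold change was -1.92 ± 0.62 (SE, limma adjusted p = 0.131).

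Pf4 stood at 959, 1464 and 1156 normalized counts in WT, 961, 228, 2012 and 889 in VAV and 1344, 504, 417 and 471 in CDK8KO. The CDK19KO libraries gave 556, 2399, 1053 and 1553 and the DKO libraries 325, 471, 367 and 553. DKO and CDK19KO did not overlap, whereas VAV replicate 2 was below all DKO libraries. Log2 fold changes were -1.53 ± 0.52 for DKO against CDK19KO and -0.91 ± 0.52 for DKO against VAV (SE, limma adjusted p = 0.154 and 0.403).

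The receptor for von Willebrand factor is built from the products of Gp1ba, which holds the binding site, Gp1bb, Gp9 and Gp5. Gp1ba (ENSMUSG00000050675, chr11:70639122-70642036, plus strand) had 1672, 325, 2475 and 928 normalized counts in VAV and 244, 309, 172 and 322 in DKO. All 4 DKO libraries were below all 4 VAV libraries, though the highest DKO library and the lowest VAV library differed by only a few counts. The log2 fold change was -2.05 ± 0.60 (SE, limma adjusted p = 0.108).
In WT, Gp1ba was at 774, 1123 and 728, in CDK19KO at 380.5, 2055, 493 and 676 and in CDK8KO at 1319, 241, 256 and 365. The CDK8KO group thus held 2 libraries inside the VAV range (replicates 1 and 4) and 2 inside the DKO range. For CDK8KO against VAV the log2 fold change was -1.35 ± 0.60 (SE, limma unadjusted p = 0.0361, adjusted p = 0.586). CDK19KO spanned the WT values, with a log2 fold change of -0.26 ± 0.64 (SE).

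Gp5, whose product completes the complex, had 940.0, 211, 1424 and 585 normalized counts in VAV, 875, 155, 155 and 285 in CDK8KO and 171, 244, 133 and 292 in DKO. WT held 545, 598 and 454, and CDK19KO held 241, 1312, 332 and 466. VAV replicate 2 was again inside the DKO range. Log2 fold changes for Gp5 were -1.66 ± 0.59 in DKO and -1.19 ± 0.59 in CDK8KO, each against VAV (SE, limma adjusted p = 0.182 and 0.586). Gp9 and Gp1bb followed the same libraries, at 64.7 to 158 and 74.7 to 142 normalized counts in DKO against 228 to 351 and 176 to 289.8 in WT. Gp1bb overlaps Septin5 in the annotation, and Septin5 was at 1544 to 2128 in DKO and 1692 to 2659 in VAV, so reads of the pair may be shared.
Vwf encodes von Willebrand factor itself, which endothelium also makes. It had 954, 1158 and 1038 normalized counts in WT, 1737, 566, 2128 and 978 in VAV and 896, 1845, 1156 and 1486 in CDK19KO. CDK8KO gave 1972, 856, 984 and 603, and DKO gave 705, 881, 702 and 727. The DKO values sat in a narrow band below every CDK19KO library, with a difference of -0.79 ± 0.35 on the log2 scale (SE, limma adjusted p = 0.292). For CDK19KO against WT it was 0.31 ± 0.38 (SE, limma adjusted p = 1).

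**Figure D3:**
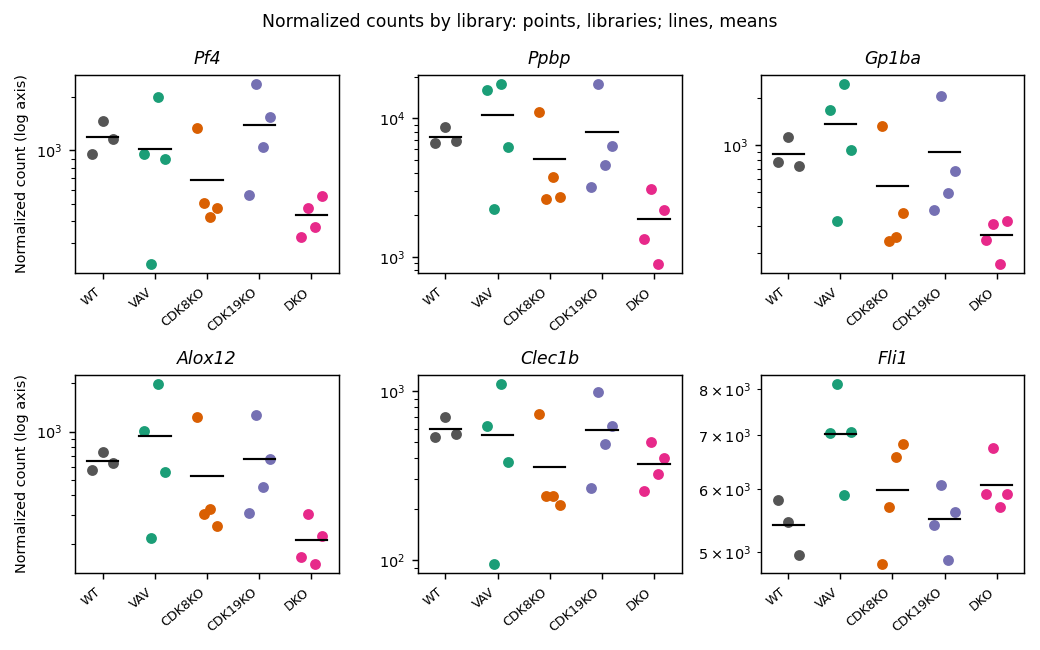
Points give the normalized count of each library on a log axis, by genotype, and lines give group means, for Pf4, Ppbp, Gp1ba, Alox12, Clec1b and Fli1. The 4 DKO libraries of Gp1ba sit at 172 to 322 and lie below all VAV libraries, whereas Fli1 spans 4831 to 8113 over all 19 libraries.

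Itga2b and Itgb3 encode the αIIb and β3 chains of the fibrinogen receptor, and Itga2 encodes the collagen-binding α2 chain. Itga2b had 722, 882 and 702 normalized counts in WT, 1463, 344, 2517 and 961 in VAV and 1771, 331, 672 and 370.0 in CDK8KO. It had 444, 1777, 1047 and 1002 in CDK19KO and 344, 871, 407 and 828.8 in DKO. In contrast to the chemokines, 2 of the DKO libraries were at the WT level, and the DKO against VAV log2 fold change was -0.90 ± 0.56 (SE, limma adjusted p = 0.453).
Itgb3 gave 3926, 1722, 5450.1 and 2831 normalized counts in VAV, 3902, 1382, 1394 and 1665 in CDK8KO and 1404, 2385, 1463 and 2152 in DKO. It was at 1986, 2510.2 and 1949 in WT and 1690.3, 4443, 1810.2 and 2539 in CDK19KO. Of the DKO libraries 2 lay inside the WT range and 2 below it, and 3 of 4 CDK8KO libraries lay below all VAV libraries. Log2 fold changes against VAV were -0.83 ± 0.36 in DKO and -0.76 ± 0.36 in CDK8KO (SE, limma adjusted p = 0.276 and 0.586). Itga2 ranged over 215 to 935 in VAV and 157 to 367 in DKO, and these ranges overlap.

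The surface receptors of the set are GPVI (Gp6), CLEC-2 (Clec1b) and TLT-1 (Treml1), an alpha granule protein that reaches the surface on activation. Gp6 had 483, 537 and 404 normalized counts in WT and 589, 91.9, 1015 and 242 in VAV. CDK8KO had 622, 181, 260.5 and 118, CDK19KO 211, 879, 376 and 488 and DKO 84.7, 199.960, 113 and 153. DKO lay below all CDK19KO libraries, and the DKO against CDK19KO log2 fold change was -1.71 ± 0.60 (SE, limma adjusted p = 0.168).
Clec1b, singled out after its values were seen, had 533, 702 and 560.1 normalized counts in WT and 624, 94.8, 1103 and 378 in VAV. Its counts were 734, 239.6, 239 and 212 in CDK8KO, 266, 986, 487 and 626 in CDK19KO and 257, 503, 324 and 400.2 in DKO. The DKO values lay inside the VAV and CDK8KO ranges and, but for replicate 1, inside the CDK19KO range, and the DKO against VAV log2 fold change was -0.14 ± 0.56 (SE, limma adjusted p = 0.926). Treml1 was at 78.0 to 122.9 in DKO and 243 to 471 in WT, with 62.0 to 667 in VAV. The highest DKO library was only just below the lowest CDK19KO library (123.2 to 702 in CDK19KO).

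Among genes of granule cargo and secretion, Selp encodes P-selectin and F5 encodes coagulation factor V. Selp stood at 309, 116, 472 and 221 normalized counts in VAV and 304, 151, 37.2 and 176 in CDK8KO. WT gave 222, 265 and 246, CDK19KO 200.005, 382, 151 and 205 and DKO 164, 177, 120.0 and 298. CDK8KO replicate 3 was the lowest library for Selp, and the CDK8KO against VAV log2 fold change was -0.90 ± 0.50 (SE, limma adjusted p = 0.597).
F5 varied little. It had 5153, 4511 and 4471 normalized counts in WT, 7416, 6416, 6166 and 6383 in VAV, 4855, 4993, 4235 and 4948 in CDK8KO and 4508, 6237, 5580.3 and 4931 in DKO. All VAV libraries were above all WT, CDK8KO and CDK19KO libraries (5059.9, 5323, 4194 and 4402), and DKO replicate 2 reached into the VAV range. F5 had the smallest unadjusted p of the members for CDK8KO against VAV (0.000492), with a fold change of -0.47 ± 0.11 on the log2 scale (SE, limma adjusted p = 0.586). For VAV against WT the log2 fold change was 0.48 ± 0.12 (SE, limma adjusted p = 0.119). The CDK8KO and WT values overlapped, and this gene overlaps the annotated gene Gm16588.
Mmrn1 encodes multimerin 1, which carries factor V in alpha granules. It had 1348, 354, 2197 and 835 normalized counts in VAV and 475, 727, 454 and 662 in DKO, with 944 to 1150.1 in WT, 378 to 1368 in CDK8KO and 541 to 2287 in CDK19KO. Nbeal2, needed for alpha granule formation and also made by other myeloid cells, had 2489, 3675 and 2522 in WT, 2733, 2887, 3670.0 and 3727 in CDK19KO and 7198, 4838, 3477 and 3194 in VAV. Its counts were 3416, 4879.8, 3069.7 and 3498 in CDK8KO and 3688, 4951, 2914 and 4014 in DKO, and all groups overlapped. The CDK19KO against WT log2 fold change was 0.18 ± 0.25 (SE, limma adjusted p = 1). Rab27b, a small GTPase of granule secretion, ran over 207 to 445 in DKO, 634 to 905 in WT and 249.4 to 1531 in VAV.

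P2ry1 and P2ry12 encode the ADP receptors of platelets, and Alox12 encodes the platelet 12-lipoxygenase. Alox12 gave 577, 747 and 638 normalized counts in WT, 1006, 216, 1984 and 564 in VAV and 1235, 305, 328 and 259 in CDK8KO. It gave 309.8, 1274, 450.4 and 670.3 in CDK19KO and 164, 306, 149 and 223 in DKO. DKO was below all CDK19KO libraries, and VAV replicate 2 was inside the DKO range. Log2 fold changes were -1.79 ± 0.57 against VAV and -1.53 ± 0.57 against CDK19KO (SE, limma adjusted p = 0.138 and 0.192).
P2ry1 had 872, 856 and 895 normalized counts in WT, 612, 1001, 649 and 814 in CDK19KO and 1062, 1317, 934 and 935 in DKO. VAV gave 1102, 923, 1122 and 896, its lowest library only just above the highest WT library, and CDK8KO gave 1190.1, 1131, 787 and 758. P2ry1 was the member with the smallest unadjusted p for CDK19KO against WT (0.268), with a fold change of -0.21 ± 0.19 on the log2 scale (SE, limma adjusted p = 1). P2ry12, which overlaps Med12l in the annotation, stayed at 204 to 385 in VAV and at 175 to 323 in DKO.
Trpc6, a cation channel, had 128, 193 and 127 normalized counts in WT, 109, 371, 147 and 228 in CDK19KO and 73.9, 116, 79.0 and 111 in DKO. VAV (146, 42.3, 439 and 136) and CDK8KO (327, 76.1, 118 and 71.6) each held 1 high library, and the CDK19KO against WT log2 fold change was 0.39 ± 0.60 (SE, limma adjusted p = 1). Gng11, a G protein γ subunit gene, was at 63.9 to 99.5 in DKO and 123 to 163 in WT.

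The cytoskeletal members include Tubb1, the β1 tubulin of the platelet marginal band. Tubb1 had 437, 539.8 and 408 normalized counts in WT, 565, 148, 1106 and 356 in VAV and 789, 185, 200.3 and 145 in CDK8KO. CDK19KO gave 244, 1009, 339.9 and 464 and DKO 100.4, 213, 109 and 126. DKO lay below all CDK19KO libraries, with log2 fold changes of -1.75 ± 0.56 against CDK19KO and -1.69 ± 0.56 against VAV (SE, limma adjusted p = 0.124 and 0.151).
Myl9 and Mylk encode the regulatory light chain of nonmuscle and smooth muscle myosin and the kinase that phosphorylates it. Both were singled out after their values were seen. Myl9 had 253, 257 and 219 normalized counts in WT, 399, 56.9, 632 and 232 in VAV and 121, 253, 126 and 193 in DKO. It ranged over 108 to 443 in CDK8KO and 112 to 616 in CDK19KO. Mylk had 389, 691 and 431 in WT, 768, 236, 1067 and 395 in VAV and 398, 493, 702 and 537 in DKO, with 249.6 to 797 in CDK8KO and 369.9 to 761 in CDK19KO. For both genes DKO values lay inside the VAV range.
Plek encodes pleckstrin, the major protein kinase C substrate of platelets, also abundant in leukocytes. It had 7311, 7133 and 6554 normalized counts in WT, 10537, 7688, 11195 and 8139 in VAV and 5934, 8056, 6157 and 5859 in DKO. CDK8KO gave 8224, 7770.2, 7141 and 6994 and CDK19KO 6686, 10906, 6166 and 8045. VAV lay above all WT libraries, and of the DKO libraries only replicate 2 reached the VAV range, as did 2 CDK8KO and 2 CDK19KO libraries. The DKO against VAV log2 fold change was -0.52 ± 0.16 (SE, limma adjusted p = 0.131), and Plek overlaps Cnrip1 and Gm12014 in the annotation. Bin2, a membrane-shaping BAR domain protein of blood cells, had 3909.8, 3033, 2104 and 2362 in VAV, 2009, 1882, 2726 and 2269.6 in CDK8KO and 2480.0, 3034, 2301 and 2723 in DKO. Its counts were 1666, 2299 and 1734 in WT and 1865, 2109, 1908 and 1903 in CDK19KO, so all DKO libraries were above all CDK19KO libraries (log2 fold change 0.43 ± 0.17, SE, limma adjusted p = 0.212). Cavin2, a caveola coat protein gene, was at 132 to 309.9 in DKO, below all CDK19KO libraries (317 to 1319).

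The transcription factor members are Nfe2 and Fli1. Nfe2 encodes the p45 subunit of NF-E2, a factor needed for platelet release, and Fli1 is an ETS factor. Nfe2 had 3538, 3827 and 2761 normalized counts in WT, 5076, 4717, 4804 and 4178 in VAV and 3629, 4577, 3367 and 3194 in DKO. It had 5030.1, 3898, 3966 and 4260.4 in CDK8KO and 3156, 3548, 2968 and 3285 in CDK19KO. All VAV libraries were above all WT libraries, and the DKO against VAV log2 fold change was -0.36 ± 0.13 (SE, limma adjusted p = 0.182). Fli1 gave 5815, 5447 and 4955 in WT, 7046, 8113, 5898 and 7058 in VAV and 4831, 5685, 6575 and 6819 in CDK8KO. It gave 5407, 6067, 4888 and 5616 in CDK19KO and 5917, 6753, 5693 and 5914 in DKO, and VAV again exceeded WT in every library. In VAV replicate 2, where all restricted markers were lowest, Fli1 was at its highest. Cd9, a tetraspanin, ranged over 1246 to 1850.1 in VAV and 1154 to 1616 in DKO. Ctla2a, which has the close paralog Ctla2b and overlaps Gm49391 and Gm49393, ranged over 115 to 717 in VAV and 193 to 366 in DKO.

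The DKO group was compared with the Cre control first. In DKO, 31 of the 33 genes had lower mean log2 levels than in VAV, and the median log2 fold change of the members was -0.67, against -0.0092 over all genes tested, of which 51.2% were lower. The restricted markers had a median of -1.36 and the other 22 members of -0.41. A log2 fold change of -1 or lower was found for 11 members (8 of them restricted), against 1.74% of all genes. None of the 33 passed the limma test, while 1.52% of all genes did. At an unadjusted p under 0.05, 14 members were lower, against 8.3% of all genes, and none was higher. Gp1ba alone had all DKO libraries below all VAV libraries, against 4.33% of all genes. edgeR on the recovered reads passed none (1.43% of all genes), with 18 at an unadjusted p under 0.05 (16.2%). DESeq2 passed 4, namely Ppbp, Gp1ba, Alox12 and Tubb1 (3.61% of all genes), with 18 unadjusted (17.2%). VAV replicate 2 decided part of this: without it Ppbp, Gp1ba and Alox12 passed in limma (3 of 33, 0.973% of all genes) and the median became -1.14. Without VAV replicate 3 the median became -0.40 and none passed (1.62% of all genes). Red cell precursor markers took 0.136 to 0.412% of reads in DKO and 0.11 to 3.2% in VAV. With their mean log2 level as a covariate, a fit added after the values were seen, the members' median was -0.47 and Ppbp, Gp1ba, Alox12 and Tubb1 fell (4 of 33, 4.27% of all genes passed).

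CDK8KO was compared with the same 4 VAV libraries, so the 2 comparisons share their control. Here 30 of 33 genes were lower, against 50.7% of all genes, with a median log2 fold change of -0.47 (restricted markers -0.73, all genes -0.0045). No member passed in limma, and neither did any gene of the table (0%). Only F5 and Gp1ba had an unadjusted p under 0.05, or 2 of 33 against 8.31% of all genes. F5 was also the only member with every CDK8KO library below every VAV library, against 0.737% of all genes. edgeR passed no member and no other gene, with 2 members unadjusted (8.39% of all genes). DESeq2 passed no member (0.00716% of all genes), with 5 unadjusted (9.31%). The median depended on single libraries: it was -1.01 without VAV replicate 2, and -0.21 and -0.27 when replicates 3 and 1 of VAV were left out. With CDK8KO replicate 1 left out it was -0.86, and with either replicate 3 or replicate 4 of that genotype left out it was -0.30. CDK8KO replicate 1 and VAV replicate 3 are the libraries rich in red cell markers, and without both the median was -0.42. All 14 erythroid markers had higher means in CDK8KO (median log2 fold change 1.22, none passed), and with their level as a covariate the members' median was -1.18 and none passed. Erythroid shares of reads were 0.41 to 3.52% in CDK8KO, and of the VAV libraries only replicate 3 (3.2%) reached that range. The others stood at 0.11 to 0.242%, so this fit leans on 1 library and hardly separates erythroid level from genotype.

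No member passed the test between CDK19KO and WT. Lower mean levels were found for 20 of the 33 genes, against 49.7% of all genes, and the median log2 fold change was -0.011, against 0.0010 over all genes. In limma 0.0215% of all genes passed and 0 members did, and none had an unadjusted p under 0.05, against 3.07% of all genes. Neither edgeR (0.0215% of all genes passed, 3.36% unadjusted) nor DESeq2 (0.107% and 3.53%) passed any member or gave one at an unadjusted p under 0.05. Log2 fold changes ran from -0.26 (Gp1ba) to 0.39 (Trpc6). The precision was low for the restricted markers: for Pf4 the log2 fold change was 0.049, with a 95% confidence interval from -1.13 to 1.23, and for Gp1ba the interval ran from -1.61 to 1.09. For the steadier genes it was narrower, as in Nfe2, from -0.33 to 0.24. CDK19KO replicate 2 held the highest count of 30 of the 33 genes within its group, and without it the median was -0.28, whereas without CDK19KO replicate 1 it was 0.21.

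**Figure D4:**
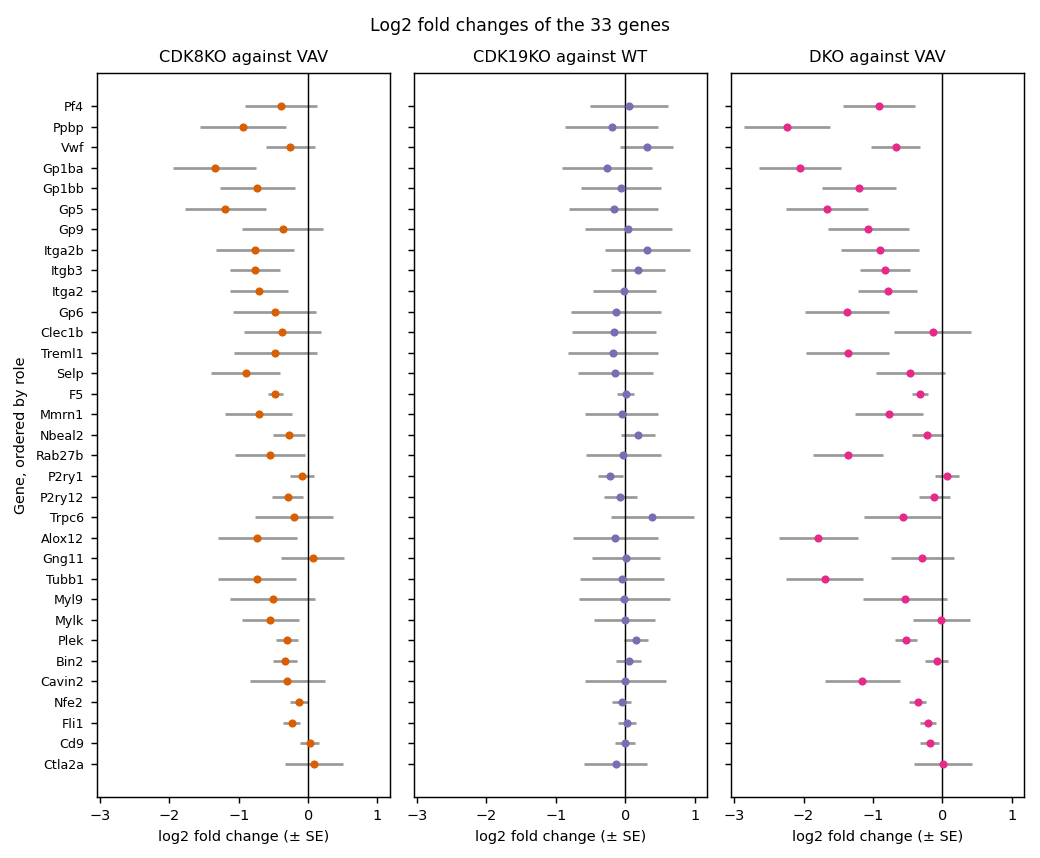
Points give the log2 fold change of each of the 33 genes and bars its SE, with CDK8KO and DKO each set against VAV and CDK19KO against WT. The DKO column reaches -2.24 (Ppbp) and is below 0 for 31 genes, and the CDK19KO column stays between -0.26 and 0.39.

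DKO was then set beside each single mutant. Against CDK19KO, which differs by the Cre and the floxed Cdk8 alleles, 25 of 33 genes were lower (51.5% of all genes), and the median log2 fold change was -0.76 (-1.49 for the restricted markers). No member passed in limma, against 2% of all genes. All DKO libraries lay below all CDK19KO libraries for 9 members (Pf4, Ppbp, Vwf, Gp1ba, Gp6, Treml1, Alox12, Tubb1 and Cavin2), against 7.74% of all genes, and above them for Bin2, against 7.27%. Some of these gaps were narrow. The highest DKO library had 122.9 normalized counts for Treml1 and 553.1 for Pf4, and CDK19KO replicate 1 had 123.2 and 556.1. Unadjusted p-values under 0.05 were found for 11 members that were lower (6.99% of all genes) and for 2 that were higher, P2ry1 and Bin2 (8.62%). edgeR passed none (1.78% of all genes), with 15 unadjusted (15.6%), and DESeq2 passed Pf4 (4.3% of all genes), with 17 unadjusted (16.9%). Fitted to these 8 libraries alone, limma passed 7 members (Pf4, Vwf, Gp6, Alox12, Tubb1, Cavin2 and Bin2) and 6.93% of all genes. Without CDK19KO replicate 2 the median was -0.46 and no member passed (0.851% of all genes). All 14 erythroid markers were lower in DKO as well (median log2 fold change -1.39, none passed). With their level as a covariate the members' median turned to 0.053, 17 of 33 were higher and none passed (0.959% of all genes). The erythroid shares of reads did not overlap (0.136 to 0.412% in DKO and 0.54 to 1.45% in CDK19KO). This fit therefore cannot separate the erythroid level from genotype.

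Against CDK8KO, 24 of 33 were lower (50% of all genes), with a median of -0.22, and Ppbp alone was lower at an unadjusted p under 0.05 (8.55% of all genes). No member passed in limma (1.7% of all genes), in edgeR (1.57%) or in DESeq2 (5.09%), with 3 unadjusted in each of edgeR (17.2% of all genes) and DESeq2 (18.3%). Without CDK8KO replicate 1 the median was -0.023. All 14 erythroid markers were lower in this comparison too (median -1.67, none passed), and with their level as a covariate the members' median turned to 0.38, with 27 of 33 higher. Erythroid shares of reads barely overlapped here (0.136 to 0.412% in DKO and 0.41 to 3.52% in CDK8KO), so this fit hardly separates erythroid level from genotype. The test of whether the DKO to CDK8KO difference departed from the CDK19KO to WT difference passed for no member (0.15% of all genes), with a median of -0.30, and no member had an unadjusted p under 0.05 in limma, edgeR or DESeq2. All 14 erythroid markers were lower in it (median -1.996, none passed), and with their level as a covariate the members' median turned to 0.64, with 28 of 33 higher. This test holds the DKO to CDK8KO difference, so the limit of that covariate fit applies here too.

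The Cre transgene by itself was compared through VAV and WT. Means of the steady members were higher in VAV. All VAV libraries lay above all WT libraries for F5, P2ry1 (lowest VAV 896.2, highest WT 895.1), Plek, Nfe2 and Fli1. That was 5 of 33, against 6.93% of all genes. None of the 33 passed in limma, against 0.093% of all genes. At an unadjusted p under 0.05, 6 were higher (F5, Nfe2, Bin2, Fli1, Nbeal2 and Plek), against 8.92% of all genes. Log2 fold changes of these 6 ran from 0.37 (Fli1) to 0.64 (Nbeal2). The restricted markers had a median of -0.10 and the 33 genes of 0.11. edgeR passed none (0.1% of all genes), with 6 unadjusted (14.7%). DESeq2 passed F5 and Nfe2 (2.3% of all genes), with 6 unadjusted (15.8%). VAV replicate 3 decided this count: without it F5 and Bin2 passed in limma (2.98% of all genes) and the median was -0.27. Without both libraries rich in red cell markers 5 passed (Fli1, F5, Ctla2a, Nfe2 and Bin2), as did 7.58% of all genes. Without VAV replicate 2 the median was 0.49. Neutrophil markers (10 genes) took 3.43 to 5.67% of reads in VAV and 3.22 to 4.13% in WT, and their part in the result was not tested.

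Because the restricted markers moved together, each member was also expressed relative to them within its library, as its normalized count divided by the geometric mean of the other restricted markers. This measure was chosen after the values were seen. For 28 of the 33 genes the DKO ratios overlapped those of the other 15 libraries. Clec1b, Mmrn1, Myl9 and Mylk stood higher in all 4 DKO libraries than in any other library, or 4 of 33 against 1.11% of all genes, and Ppbp stood lower, or 1 of 33 against 0.0215%. These shares are low by construction. The geometric mean of the restricted markers was 174.7 in VAV replicate 2 and 180.0 to 329.7 in DKO. A gene that does not follow these markers therefore overlaps almost by rule, so the shares over all genes are no fair measure for the members. For Clec1b the ratio was 1.49, 1.59, 1.89 and 1.44 in DKO, against 0.89, 0.88 and 0.997 in WT and 0.71, 0.52, 0.72 and 0.66 in VAV. It was 0.72, 0.98, 0.84 and 0.83 in CDK8KO and 0.86, 0.68, 1.01 and 0.94 in CDK19KO. The highest ratio outside DKO was 1.01. Set against Gp6 alone, the normalized count of Clec1b was 2.52 to 3.04 times that of Gp6 in DKO and 0.916 to 1.79 times in the other 15 libraries. The DKO libraries did not overlap the others in this ratio, which was also chosen after the values were seen. Gp6 itself had ratios to the restricted markers of 0.44 to 0.60 in DKO and 0.40 to 0.92 elsewhere. Other pairs of markers were not compared, so no share over all pairs can be set beside this ratio.

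Myl9 had ratios of 0.68, 0.77, 0.70 and 0.68 in DKO and 0.33 to 0.50 elsewhere. For Mmrn1 they were 2.64, 2.21, 2.50 and 2.31 in DKO and 1.39 to 2.03 elsewhere, and for Mylk 2.21, 1.4996, 3.86 and 1.87 and 0.54 to 1.36. For these 3 genes, of myosin regulation and granule cargo, the DKO ratios all lay above those of the other libraries. Ppbp had ratios of 9.08, 11.8, 5.73 and 9.30 in DKO and 11.97 to 25.1 elsewhere, with all DKO ratios below the others. Ppbp and Pf4 start 3917 bases apart on the same strand, and the Pf4 ratio overlapped between DKO and the other libraries.

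**Figure D5:**
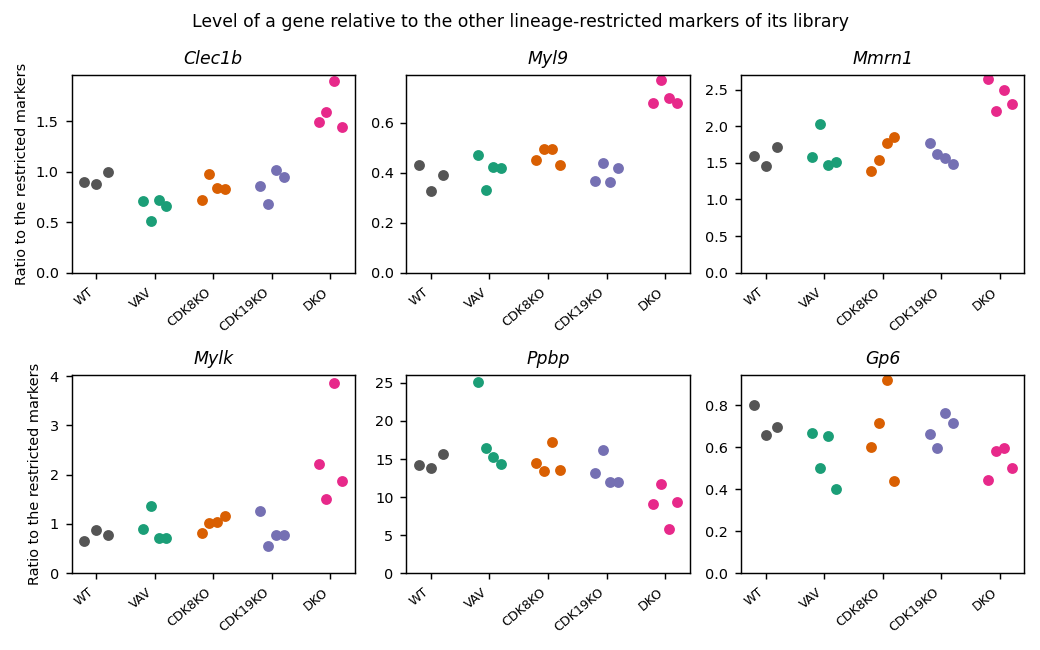
Points give, for each library by genotype, the level of a gene divided by the geometric mean of the other restricted markers of that library. The 4 DKO points are the highest for Clec1b, Myl9, Mmrn1 and Mylk and the lowest for Ppbp, and those of Gp6 fall within the range of the other genotypes.

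With the mean log2 level of the 11 restricted markers as a covariate, also added after the values were seen, Clec1b rose in DKO in all 3 comparisons. For this fit, rose and fell mean relative to these markers. In normalized counts the DKO mean of Clec1b (371) was below VAV (550) and CDK19KO (591) but not CDK8KO (356). That of Myl9 (173) was below VAV (330), CDK8KO (203) and CDK19KO (295). The adjusted log2 fold change of Clec1b was 1.17 ± 0.16 against VAV, 0.84 ± 0.15 against CDK8KO and 0.79 ± 0.16 against CDK19KO (SE, limma adjusted p = 0.00113, 0.0046 and 0.0258). Myl9 rose as well, by 0.90 ± 0.15, 0.64 ± 0.14 and 0.94 ± 0.16 (SE, limma adjusted p = 0.00623, 0.0232 and 0.00418). The same fit passed 3 members against VAV (1.85% of all genes), 4 against CDK8KO (1.9%) and 3 against CDK19KO (0.78%). Mmrn1 (0.48) and Mylk (0.94) rose against CDK8KO (limma adjusted p = 0.0199 and 0.0261), and P2ry1 (0.74) rose against CDK19KO (limma adjusted p = 0.0365). Ppbp fell against VAV (-0.80, limma adjusted p = 0.0413). Clec1b, Myl9, Mmrn1, Mylk and Ppbp had first stood out by their ratios to these markers in the same libraries. Their p-values in this fit are therefore no independent support for those ratios. Clec1b and Ppbp are themselves part of this covariate. When both were left out of it, Clec1b still passed in all 3 comparisons, at 1.203, 0.86 and 0.82 (1.93%, 1.86% and 0.787% of all genes passed), and Ppbp no longer passed (-0.77, limma adjusted p = 0.069). In VAV against WT, Itgb3 was the 1 member to pass with the covariate (0.65 ± 0.12, SE, limma adjusted p = 0.0245, 0.272% of all genes).

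Other cells also make some of these genes, and their markers are given here for that reason. Clec1b overlaps Clec9a, a dendritic cell gene, in the annotation, and Clec9a had 120.3, 171, 111 and 196 normalized counts in DKO and 113, 59.8, 157 and 62.9 in VAV, and the DKO values lay within the range of CDK8KO (106 to 211). The smooth muscle markers Tagln and Myh11 stayed at or below 7.49 and 8.99 normalized counts in every library, near the limit of 3 reads. They were the only vessel wall and stroma genes of the list too low to test. Acta2 and Pdgfrb of the same list averaged 10 normalized counts or more. Endothelial and stromal markers together (15 genes) took 0.055 to 0.0704% of reads in DKO and 0.0483 to 0.0864% in VAV. Of the 13 tested, 9 were lower in DKO than in VAV and 4 higher (median -0.11 on the log2 scale), and none passed. Against CDK8KO 8 were higher and 5 lower, and Cdh5 alone rose (274.7 to 470.0 normalized counts in DKO). Monocyte markers (10 genes) took 0.332 to 0.561% in DKO and 0.219 to 0.454% in VAV. Basophil and mast cell markers (8 genes) took 0.0486 to 0.0606% in DKO and 0.0311 to 0.0408% in VAV. Every DKO library lay above all other libraries in this share, the nearest being in WT (0.0385 to 0.0483%). Eosinophil markers (7 genes) took 0.0167 to 0.0761% in DKO and 0.00564 to 0.0105% in VAV, without overlap. The DKO range overlapped that of CDK19KO (0.0105 to 0.0222%). The part of these cells in the higher relative levels of Clec1b, Myl9, Mmrn1 and Mylk was not tested.

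Promoters of 5 restricted markers are printed, chosen after their values were seen. Ppbp and Clec1b are those whose ratio set DKO apart, Pf4 and Gp6 are the genes they were compared with, and Gp1ba is the member without overlap between DKO and VAV. Each runs 5′ to 3′ along the gene, from 250 bases before to 50 after the start in RefSeq for GRCm38.p6. The windows are chr5:90772185-90772484 for Pf4, chr5:90768268-90768567 for Ppbp, chr11:70638872-70639171 for Gp1ba and chr6:129397047-129397346 for Clec1b, on the plus strand, and chr7:4397695-4397994 for Gp6, on the minus strand. Capitals mark matches on either strand to AGATAA or TGATAA, letters bound by GATA factors, and to CCGGAA or AGGAAG, letters bound by ETS factors.
Pf4: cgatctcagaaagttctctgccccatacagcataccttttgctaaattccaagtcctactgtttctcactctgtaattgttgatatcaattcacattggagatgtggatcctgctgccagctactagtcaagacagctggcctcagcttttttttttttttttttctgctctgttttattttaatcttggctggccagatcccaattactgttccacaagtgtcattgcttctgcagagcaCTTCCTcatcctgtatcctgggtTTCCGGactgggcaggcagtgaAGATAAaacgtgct
Ppbp: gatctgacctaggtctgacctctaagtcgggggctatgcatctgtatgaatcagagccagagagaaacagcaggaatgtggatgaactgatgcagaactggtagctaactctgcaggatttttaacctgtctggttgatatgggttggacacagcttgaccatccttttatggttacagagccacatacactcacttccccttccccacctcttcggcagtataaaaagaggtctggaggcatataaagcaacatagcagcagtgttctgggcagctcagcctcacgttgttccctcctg
Gp1ba: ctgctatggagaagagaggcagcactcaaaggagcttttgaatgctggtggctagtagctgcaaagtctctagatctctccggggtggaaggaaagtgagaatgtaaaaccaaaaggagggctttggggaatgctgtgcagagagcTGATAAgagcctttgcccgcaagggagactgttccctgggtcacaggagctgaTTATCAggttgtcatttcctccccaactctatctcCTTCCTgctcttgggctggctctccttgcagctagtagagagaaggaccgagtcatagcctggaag
Gp6: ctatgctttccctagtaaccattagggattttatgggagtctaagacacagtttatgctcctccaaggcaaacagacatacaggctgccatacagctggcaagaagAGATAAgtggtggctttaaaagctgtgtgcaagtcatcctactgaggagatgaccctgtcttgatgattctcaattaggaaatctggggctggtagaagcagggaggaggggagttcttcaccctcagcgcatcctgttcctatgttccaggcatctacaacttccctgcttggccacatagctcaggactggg
Clec1b: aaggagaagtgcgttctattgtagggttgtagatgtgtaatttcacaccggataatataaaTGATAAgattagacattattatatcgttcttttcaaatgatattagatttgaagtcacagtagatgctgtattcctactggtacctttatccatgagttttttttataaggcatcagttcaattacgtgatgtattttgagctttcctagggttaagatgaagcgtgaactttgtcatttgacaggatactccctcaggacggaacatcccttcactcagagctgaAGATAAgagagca
Matches of both families occurred in Pf4 (AGATAA 37 bases after the start, CCGGAA and AGGAAG on the other strand 15 bases after and 9 before) and Gp1ba (TGATAA 104 bases before the start on one strand and 51 before on the other, AGGAAG 16 before). Gp6 and Clec1b held GATA matches only, and the Ppbp window held no match to these letters. Promoters were matched for 26 of the 33 genes. A member counted if any of its promoters held the match, while the reference was counted by promoter, which can raise the members' shares. A GATA match was found in 7 of the 26 (26.9%), against 18.6% of the 32851 promoters of the reference. An ETS match was found in 15 (57.7%, against 45.2%) and matches to both in 4 (15.4%, against 7.61%). TGTGGT, bound by RUNX factors, was in 11.5% (16.8% of all), and TGAGTCA, bound by NF-E2 and AP-1, in 7.69% (5.2% of all). These are letter matches and say nothing of binding in these cells.

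Beyond the 33 genes, 128 genes of the lineage were listed by role, and 124 were tested. None rose in any comparison. In DKO against VAV, 97 of the 124 were lower (51.2% of all genes). The 2 that fell are a share near the 1.52% of all genes that passed: Lyl1, a transcription factor of blood progenitors, and Thbs1, thrombospondin 1 of alpha granules, which monocytes also make. Lyl1 had 988, 1108, 924 and 1054 normalized counts in VAV and 770.2, 691, 601 and 731 in DKO. Every DKO library was below every VAV library, with a difference of -0.55 ± 0.12 on the log2 scale (SE, limma adjusted p = 0.0297). Thbs1 fell in DKO against VAV, CDK8KO and CDK19KO, with log2 fold changes of -2.43, -2.16 and -2.71 (limma adjusted p = 0.00102, 0.00272 and 0.000246). All DKO libraries of Thbs1 (1101, 2192, 1391 and 1799 normalized counts) lay below all other libraries, the lowest of which was CDK8KO replicate 4 at 3376. Cxcl5, a chemokine gene near Pf4 and Ppbp, also fell in DKO against CDK8KO and CDK19KO. With Thbs1 this made 2 of the 124 in each, where 1.7% and 2% of all genes passed (Cxcl5, limma adjusted p = 0.0439 and 0.0138). Its normalized counts were 3.32, 2.60, 4.21 and 0 in DKO, near the limit of 3 reads, and 63.0, 43.7, 28.5 and 9.80 in CDK8KO.

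By role, the factors of the lineage had a median log2 fold change of -0.21 in DKO against VAV (15 of 18 lower), thrombopoietin signalling of -0.12 (7 of 11 lower) and platelet activation signalling of -0.10 (23 of 30 lower). Granule biogenesis had -0.076 (15 of 22 lower), other platelet cargo and surface proteins -0.47 (23 of 27 lower) and the megakaryocyte cytoskeleton -0.11 (14 of 16 lower), against -0.0092 and 51.2% lower over all genes. In CDK8KO against VAV, 101 of 124 were lower with a median of -0.21, against 50.7% and -0.0045 over all genes, and none passed (0% of all genes). Runx1 and Gata1 did not pass and were chosen for their roles after their values were seen. Runx1 (4745 to 5964 in VAV, 5061 to 5542 in DKO) had overlapping values in these groups, and Gata1, which red cell precursors share, was highest in the libraries rich in red cell markers, VAV replicate 3 (1059) and CDK8KO replicate 1 (1576).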

How the data were processed

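Bulk polyA RNA-seq of 19 marrow libraries in 5 genotypes was taken from 1 table of normalized counts deposited by the authors. Per the submitters' processing notes, Salmon 1.4.0 and DESeq2 were used with mm10; their roles and the annotation release are not given in the sources used here. The deposited values are a signal: every value in a library is a whole multiple of 1 step (100%, tolerance 0.001 read), so whole reads were recovered. Tests used limma 3.58.1 in R 4.3.3 on log2(value + 1), genes averaging 10 or more normalized counts, all groups, adjusted p under 0.05. Alternatives included edgeR 4.0.16 and DESeq2 1.42.0 on recovered reads, pseudocounts of 0.5 and 5, a minimum of 50, TMM factors, the compared groups alone, a replicate block and leaving out libraries. The limma script was tested on simulated data. Coordinates, exon lengths and overlaps come from GENCODE vM21 (GRCm38, mm10), matched by gene ID, and promoters from RefSeq.

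All members are accounted for. Values by library are given for members that passed, the 8 smallest unadjusted p-values in each of 3 main comparisons and the 3 with most counts per kilobase. Clec1b, Myl9, Mmrn1 and Mylk were added after their values were seen. Pathway genes that passed are named, at most 6 per comparison. Members, lists and markers were chosen with earlier results of these data known. Of the listed genes, Mkl1 and Ahsp were not found under those symbols. No 2 libraries of a group agreed within sampling noise. The values of 1 gene of the lineage lists are not reported here.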

Additional observations from a re-analysis of the deposited data

Results flagged for a closer look

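In each genotype with 4 libraries, the gap between the most extreme library and its nearest neighbour was set against the whole range of the group (Dixon's ratio, critical value at 95%). Of 132 such groups of values, 18 exceeded the critical value. The genes of a genotype come from the same 4 libraries and many vary together, so the 132 groups are not independent. No rate expected by chance can therefore be set beside the 18. Of the 18, 16 were the same library, CDK8KO replicate 1, which was far above the other 3 CDK8KO libraries.

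In normalized counts, CDK8KO replicate 1 had 1344 for Pf4 (next highest 504.2), 11174 for Ppbp (next 3766), 1319 for Gp1ba (next 364.7), 368.5 for Gp1bb (next 113.8) and 455.4 for Gp9 (next 136.8). The integrin genes Itgb3 and Itga2 were at 3902 (next 1665) and 571.7 (next 260.8). Clec1b was at 733.7 (next 239.6) and Treml1 at 466.3 (next 136.0). Granule and signalling genes followed, with 1368 for Mmrn1 (next 499.0), 1144 for Rab27b (next 400.6) and 1235 for Alox12 (next 328.3). Among cytoskeletal and membrane genes, Tubb1 was at 789.1 (next 200.3), Myl9 at 443.5 (next 139.0), Mylk at 796.7 (next 292.2) and Cavin2 at 815.2 (next 293.3). Red cell precursor markers took 3.52% of the reads of this library and 0.41 to 0.933% in the other CDK8KO libraries, and their part in these values was not tested.

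The other 2 values were in DKO replicate 2, the highest DKO library for Vwf (881.2 normalized counts, next 726.9) and for Plek (8056, next 6157).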

How the results depend on the processing

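Of the 33 members, those with 1 sign in all settings other than the covariates were 32 in DKO against CDK19KO, 25 in DKO against VAV, 22 in DKO against CDK8KO, 21 in CDK8KO against VAV, 21 in the interaction, 12 in VAV against WT and 5 in CDK19KO against WT. Of the 8 members with the smallest p in CDK19KO against WT, Gp1ba reversed under edgeR (0.053), DESeq2 (0.042) and without CDK19KO replicate 1 (0.038), and Plek (-0.015) and Itgb3 (-0.11) reversed without CDK19KO replicate 2. Leaving out single libraries gave -0.77 to 0.038 for Gp1ba, -0.015 to 0.26 for Plek and -0.11 to 0.36 for Itgb3. The cause was not tested. Members passing were otherwise 0: DESeq2 gave 4 in DKO against VAV, 2 in VAV against WT and 1 in DKO against CDK19KO, where the fit to these libraries alone gave 7. Without both libraries rich in red cell markers, 5 passed in VAV against WT. Leaving out single libraries gave 0 to 3 in DKO against VAV and 0 to 2 in VAV against WT. Medians over the same settings ran from -1.01 to -0.21 (CDK8KO against VAV), -0.28 to 0.21 (CDK19KO against WT), -1.14 to -0.40 (DKO against VAV), -0.27 to 0.49 (VAV against WT), -0.33 to -0.023 (DKO against CDK8KO), -0.97 to -0.46 (DKO against CDK19KO) and -0.44 to -0.055 (interaction).

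With the restricted markers as a covariate, the members passing were 1 for VAV against WT and 3, 4 and 3 for DKO against VAV, CDK8KO and CDK19KO. With Clec1b and Ppbp left out of it they were 1, 2, 4 and 4. Medians then became 0.034 and 0.080 in DKO against VAV and 0.19 and 0.20 in DKO against CDK19KO. With the erythroid markers as a covariate, 4 passed in DKO against VAV and 1 (Mylk) in DKO against CDK8KO, and medians were -1.18 (CDK8KO against VAV), 0.053 (DKO against CDK19KO) and 0.64 (interaction). These covariates were chosen after seeing the data. But for DKO against VAV, the erythroid fits named here hardly separate erythroid level from genotype, or cannot.

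Replicate numbers are shared between groups, but same-numbered libraries did not all deviate together (correlations from -0.14 to 0.31). The highest value was for replicate 4 of DKO and CDK19KO. With the other CDK19KO libraries, DKO replicate 4 reached -0.069 at most. Both replicate 4 libraries were rich in muscle markers (0.0336% of reads in DKO and 0.123% in CDK19KO). The labels name no batch, and a batch shared by some replicates was not tested. With the replicate block 0 members passed in every comparison, and the median was -0.67 in DKO against VAV, -0.47 in CDK8KO against VAV, 0.0040 in CDK19KO against WT and -0.27 in the interaction.

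Over all genes, the calls in DKO against VAV were 213, and 504 with DESeq2, 99 with these groups alone, 597 with the erythroid covariate, 385 and 102 without the libraries richest in red cell and in muscle markers, and 107 to 226 leaving out 1 library. In VAV against WT they were 13, and 321 with DESeq2, 3 with these groups alone, 1060 without both red cell rich libraries and 3 to 416 leaving out 1 library (416 without VAV replicate 3), with 43, 38 and 50 under the erythroid and the other covariates. DKO against CDK8KO gave 238, and 711 with DESeq2, 31 with these groups alone, 92 without the muscle rich libraries and 105 to 422 leaving out 1 library. DKO against CDK19KO gave 279, and 601 with DESeq2, 968 with these groups alone, 97 without the muscle rich libraries, 134, 109 and 110 with the covariates and 119 to 227 leaving out 1 library. CDK19KO against WT gave 3, and 15 with DESeq2, 6 with no filter and 1 with the block or without the muscle rich libraries; CDK8KO against VAV gave 0, and 1 with DESeq2, these groups alone or without VAV replicate 3; the interaction gave 21, and 98 with DESeq2 and 11 without the muscle rich libraries. At this depth a gene with under 3 reads in a library was not measured, a limit that no member came near.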
